A study of Mus musculus with 6 samples.

Results

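The genes described here are 9 genes of blood coagulation and plasminogen activation, 9 of the 21899 genes in an RNA sequencing table of mouse tumors. They were chosen by gene symbol with results of the same 6 samples already known. Their differences between the groups are therefore given as a description, and p-values of theirs are not read as tests. F3 (tissue factor), F7 and F10 belong to the pathway that starts coagulation, Tfpi, Thbd and Procr hold it back, and Plau, Plaur and Plat activate plasminogen. All 9 passed the filter on low values, a mean of at least 1 FPKM (fragments scaled to exon length and library size) over the 6 samples, which left 10853 genes.

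Tissue factor is a membrane receptor on fibroblasts, activated monocytes and many tumor cells. It binds factor VII, and this complex activates factor X, which forms thrombin from prothrombin; thrombin makes fibrin. Urokinase (Plau), held at the cell surface by its receptor (Plaur), and tissue plasminogen activator (Plat) turn plasminogen into plasmin, which dissolves fibrin and degrades matrix. Factors VII and X circulate in plasma and are made mainly by the liver, but macrophages are also known to make them.

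The tumors were grown from LLC-luc cells, a luciferase-carrying Lewis lung carcinoma line, under the skin of male C57BL/6 mice, so the tissue that the labels call lung cancer did not lie in the lung. All 3 groups received laser light. The Laser group had no photosensitizer and was given saline according to the methods of the study, the PC-La group was injected with phycocyanin, a blue light-absorbing protein of Spirulina, and the SePC-La group was injected with phycocyanin from selenium-enriched Spirulina. Injections followed every 5 days, and 4 h after an injection light of 620 nm was given for 10 min, per the labels. The labels differ from the methods of the study in wavelength and interval. For the mice, the methods state the light as an energy dose and intensity, not as a time. Each group had 2 samples by the labels and the methods of the study, although its results text speaks of triplicates. The mice were adult, with no exact age given. Neither source says whether the 2 samples came from separate mice, so errors and p-values measure the spread between samples, which may be technical. No group without laser light was sequenced among the samples used, so the comparisons concern what was injected.

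By totals recovered from the FPKM values and exon lengths, the 6 libraries held 14447792 to 17649489 reads. The 2 Laser libraries resembled each other less (r = 0.95 across genes) than the 2 PC-La libraries (r = 0.99) and the 2 SePC-La libraries (r = 0.97). Laser 2 held the highest sum of skeletal muscle markers, 141 FPKM, and the lowest neutrophil sum. The muscle sum was 20.1 FPKM in Laser 1, 2.40 and 2.22 FPKM in PC-La, and 1.52 and 6.08 FPKM in SePC-La. Both Laser samples were thus above all samples of the other groups in muscle markers. The summed fibroblast markers ranged from 122 FPKM in SePC-La 1 to 1717 FPKM in PC-La 1. Of the epithelial markers, Krt8 and Krt18 were between 78.1 and 166 FPKM in the 6 libraries, while Epcam stayed at or below 0.129 FPKM.

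In the mm10 (GRCm38) annotation, F7 and F10 are neighbors on the plus strand of chromosome 8 at chr8:13026034-13035809 and chr8:13037308-13056676, with 1498 bases between the end of F7 and the start of F10. F3 lies at chr3:121723537-121735048, Plaur at chr7:24462484-24475968, Plau at chr14:20836660-20843385 and Plat at chr8:22757727-22782844, all on the plus strand. Procr is at chr2:155751117-155755471 on the plus strand, and Thbd (chr2:148404466-148408188) and Tfpi (chr2:84432855-84476775) are on the minus strand of the same chromosome. No exon of the 9 genes overlapped an exon of another annotated gene.

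The 250 bases before the start of 4 of these genes are shown (RefSeq, GRCm38.p6, plus strand). They were chosen because F10, Plaur and F7 were higher in both SePC-La samples than in both PC-La samples and F3 is the receptor of the pathway. Procr and Thbd were also higher in both SePC-La samples than in both PC-La samples, and are not shown. The stretches shown span chr3:121723287-121723536 (F3), chr7:24462233-24462482 (Plaur), chr8:13025784-13026033 (F7) and chr8:13037058-13037307 (F10). Capitals mark matches, on either strand, to the AP-1 motif TGANTCA, the Sp1 motif GGGCGG, the HNF4 motif TGNNCTTTG and the core of the hypoxia response element ACGTG.

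F3: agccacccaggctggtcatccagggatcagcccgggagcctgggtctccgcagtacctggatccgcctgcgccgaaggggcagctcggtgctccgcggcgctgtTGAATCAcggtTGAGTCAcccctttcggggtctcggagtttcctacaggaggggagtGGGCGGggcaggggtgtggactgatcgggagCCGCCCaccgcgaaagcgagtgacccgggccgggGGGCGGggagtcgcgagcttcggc
Plaur: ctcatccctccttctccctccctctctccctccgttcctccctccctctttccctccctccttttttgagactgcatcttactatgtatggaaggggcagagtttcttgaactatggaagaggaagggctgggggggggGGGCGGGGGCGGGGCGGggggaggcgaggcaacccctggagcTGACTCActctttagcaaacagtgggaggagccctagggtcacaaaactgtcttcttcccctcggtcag
F7: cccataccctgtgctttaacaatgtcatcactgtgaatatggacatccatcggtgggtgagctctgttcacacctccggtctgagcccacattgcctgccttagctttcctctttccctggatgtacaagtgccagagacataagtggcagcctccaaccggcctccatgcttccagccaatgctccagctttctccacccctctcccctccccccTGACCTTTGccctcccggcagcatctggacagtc
F10: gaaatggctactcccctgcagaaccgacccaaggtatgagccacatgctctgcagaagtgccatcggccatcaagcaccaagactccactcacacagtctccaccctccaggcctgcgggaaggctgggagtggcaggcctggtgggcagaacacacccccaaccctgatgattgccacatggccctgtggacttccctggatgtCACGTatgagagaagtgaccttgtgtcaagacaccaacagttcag

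F3 held 2 AP-1 matches, 146 to 140 and 135 to 129 bases before the start, and 3 Sp1 matches. Plaur held an AP-1 match 69 to 63 bases before the start and 3 adjoining Sp1 matches, of which the last 2 share a base. F7 held an HNF4 match 34 to 26 bases before the start, and F10 held a hypoxia response match on the minus strand 45 to 41 bases before it. Of 32851 promoter windows of the same length, 6.75% held the AP-1 motif, 32.7% the Sp1 motif, 5.49% the HNF4 motif and 16.6% the hypoxia response core. Windows were found for 6 of the 9 genes, 7 windows in all with 2 for Tfpi, and 3 of the 7 held the AP-1 motif (F3, Plaur and Procr). The TATA motif TATAAA, found in 12.4% of all windows, matched in 1 window of Tfpi. A match describes letters and does not show that a factor binds. Plau, Thbd and Plat had no entry.

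For F10 and Plaur no group overlapped another. The share of all genes with 3 separate groups was not counted, so this is not read as particular to these genes. Separation of 2 groups was common, at 42% of all genes for PC-La against Laser. It was 40.6% for SePC-La against Laser and 65.5% for SePC-La against PC-La. F10, the enzyme that forms thrombin, was at 7.06 and 8.67 FPKM in Laser, 2.76 and 3.55 FPKM in PC-La, and 13.8 and 13.2 FPKM in SePC-La. PC-La was lowest and SePC-La highest. The PC-La mean was 0.401 times the Laser mean, and the SePC-La mean was 1.71 times the Laser mean and 4.27 times the PC-La mean. On the log2(FPKM + 1) scale the differences were -1.09 (SE 0.16), 0.71 (SE 0.16) and 1.81 (SE 0.16). From 118 to 627 reads lay behind each value.

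F7, the ligand that tissue factor binds, had the lowest mean of the 9 genes in each group. It was measured at 1.68 and 5.70 FPKM in Laser, 0.241 and 0.359 FPKM in PC-La, and 3.80 and 1.66 FPKM in SePC-La. Both PC-La samples were below the other 4, while Laser and SePC-La overlapped. The PC-La values rest on 7 and 10 reads, against 49 to 187 reads in the other samples. The log2 differences were -1.71 (SE 0.48) for PC-La against Laser, -0.24 (SE 0.48) for SePC-La against Laser and 1.46 (SE 0.48) for SePC-La against PC-La. Because the level in PC-La was below the pseudocount of 1, these values understate the change: with a pseudocount of 0.1, PC-La against Laser gave -3.02.

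F3, the receptor, was at 34.1 and 16.8 FPKM in Laser, 33.2 and 26.1 FPKM in PC-La, and 18.0 and 30.0 FPKM in SePC-La. The 3 groups overlapped, and the largest of the log2 differences was -0.33 (SE 0.38), for SePC-La against PC-La. Thus the receptor was present at 16.8 FPKM or more in every sample, including those in which F7 was near its lowest.

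The 7 hepatocyte markers, none of which passed the filter, summed to 1.01 and 1.17 FPKM in Laser, 3.81 and 0.805 FPKM in PC-La, and 1.25 and 1.08 FPKM in SePC-La. The sum was above the F7 level in both PC-La samples and above the F10 level in PC-La 1, and below both genes in the other 2 groups. Alb, the albumin gene, was at 0 in 3 samples and at most 1.42 FPKM, in PC-La 1. The part of liver cells or plasma in the F7 and F10 levels was not tested. F2 (prothrombin) was at 0 in 5 of 6 samples and at 0.0125 FPKM in the other, and Plg (plasminogen) was at 0 in 5 of 6 samples and at 0.0172 FPKM in PC-La 1. Transcripts of prothrombin and plasminogen were thus close to undetected in these samples. The sum of the 10 macrophage markers, all past the filter, was 668 and 718 FPKM in Laser, 911 and 967 FPKM in PC-La, and 392 and 739 FPKM in SePC-La. Most of it was C1qa, C1qb and C1qc, which were highest in PC-La. Mrc1 was lower in both PC-La samples (14.5 and 14.3 FPKM) than in Laser (26.7 and 29.7 FPKM), as F7 and F10 were, with 10.4 and 29.5 FPKM in SePC-La. The part of macrophages in the F7 and F10 levels was not tested.

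Of the platelet list, Pf4 and Ppbp had their lowest levels in PC-La, as F10 did. The list summed to 77.6 and 92.3 FPKM in Laser, 22.2 and 20.1 FPKM in PC-La, and 92.7 and 148 FPKM in SePC-La, and most of each sum was Pf4, a chemokine gene that macrophages can also express. Of its 10 genes, 3 passed the filter, 6 stayed below 1 FPKM in every sample and Gp1bb was at 0 in all. Clec1b, which passed the filter, went the other way, with 1.26 and 1.45 FPKM in Laser, 1.45 and 1.37 FPKM in PC-La, and 0.448 and 0.920 FPKM in SePC-La. Itga2b, the platelet integrin, was between 0.546 and 1.40 FPKM and was lowest in SePC-La 1. The part of platelet genes in the F10 result was not tested. In bulk samples, fewer cells of a type and less RNA per cell cannot be told apart.

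**Figure D1:**
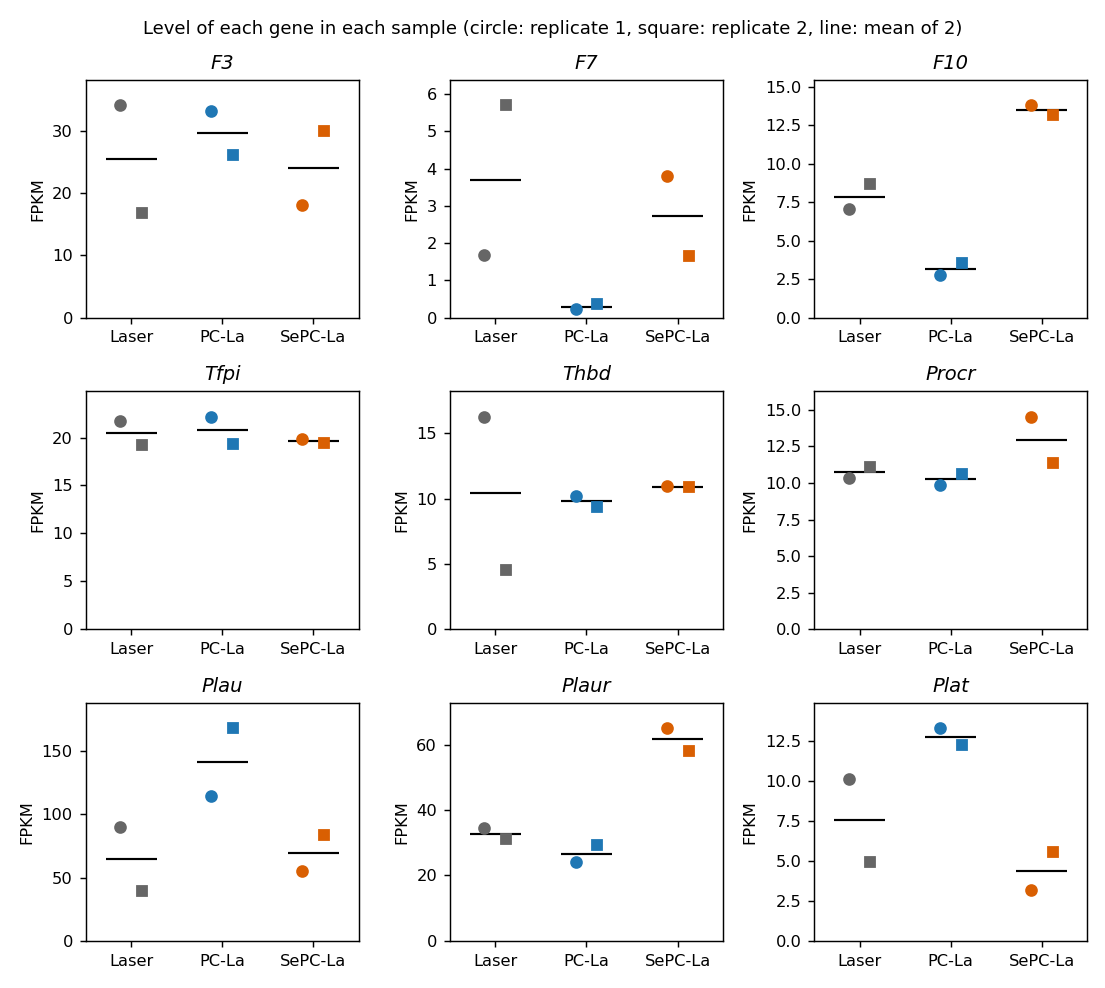
FPKM of each of the 9 genes (y axes, linear, from 0) in the 2 samples of each group (x axis), with circles for replicate 1, squares for replicate 2 and lines for the mean. F10 separates into 3 levels from 2.76 to 13.8 FPKM, Plaur is highest in SePC-La, and Tfpi stays between 19.2 and 22.2 FPKM.

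Plaur, the urokinase receptor, was at 34.4 and 31.1 FPKM in Laser, 24.0 and 29.2 FPKM in PC-La, and 64.9 and 58.2 FPKM in SePC-La. Both SePC-La samples were above the other 4, and both PC-La samples were below both Laser samples. The SePC-La mean was 1.88 times the Laser mean and 2.32 times the PC-La mean. The log2 differences were 0.89 (SE 0.14) and 1.19 (SE 0.14), and PC-La against Laser gave -0.30 (SE 0.14).

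Plau, urokinase itself, was at 89.8 and 39.4 FPKM in Laser, 115 and 168 FPKM in PC-La, and 55.0 and 83.5 FPKM in SePC-La. Both PC-La samples were above all other samples, while Laser and SePC-La overlapped. The PC-La mean was 2.19 times the Laser mean, with a log2 difference of 1.21 (SE 0.44). SePC-La against PC-La gave -1.02 (SE 0.44), which did not reach the p threshold used for screening, and SePC-La against Laser gave 0.18 (SE 0.44). The SE is shared by all groups, Laser included. Fitted without the Laser samples, SePC-La against PC-La had an SE of 0.26 and met the criterion. The Laser samples differed by more than 2-fold, so the Laser mean of Plau is loosely fixed.

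Plat, the other plasminogen activator, was at 10.1 and 4.94 FPKM in Laser, 13.3 and 12.3 FPKM in PC-La, and 3.16 and 5.55 FPKM in SePC-La. Its PC-La samples were the highest of the 6, and Laser and SePC-La overlapped. The SePC-La mean was 0.341 times the PC-La mean, a log2 difference of -1.40 (SE 0.34). PC-La against Laser gave 0.76 (SE 0.34) and SePC-La against Laser gave -0.64 (SE 0.34).

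Part of the fibroblast list moved with Plat and Plau. The 7 markers, all past the filter, summed to 1243 and 288 FPKM in Laser, 1717 and 1568 FPKM in PC-La, and 122 and 634 FPKM in SePC-La. Most of the sum was Col3a1, Lum and Dcn, which were highest in PC-La. Col1a1 and Col1a2 were highest in SePC-La 2 (23.2 and 10.1 FPKM), and Pdgfrb was lowest in PC-La 1. Within each group the sample with the higher fibroblast sum also had the higher Plat level, which for Plau held in Laser and SePC-La but not in PC-La. Mllt3 was the nearest gene to Plat over the 6 samples (r = 0.999). Cilp, a matrix gene, was the second nearest (r = 0.997), with 14.7 FPKM in PC-La 1 and 0.0651 FPKM in SePC-La 1. Neutrophil markers, like Plaur, had their highest sums in both SePC-La samples. They summed to 161 and 34.6 FPKM in Laser, 157 and 91.8 FPKM in PC-La, and 338 and 463 FPKM in SePC-La. Most of each sum was S100a9 and S100a8. The PC-La sums fell inside the Laser range, unlike Plaur, and within PC-La and within SePC-La the sample with the higher sum had the lower Plaur level. Mmp9 was at 6.41 FPKM in SePC-La 1, below both PC-La samples. Of the 9 neutrophil markers, 2 stayed below 1 FPKM in every sample. The part of fibroblasts or neutrophils in these results was not tested.

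**Figure D2:**
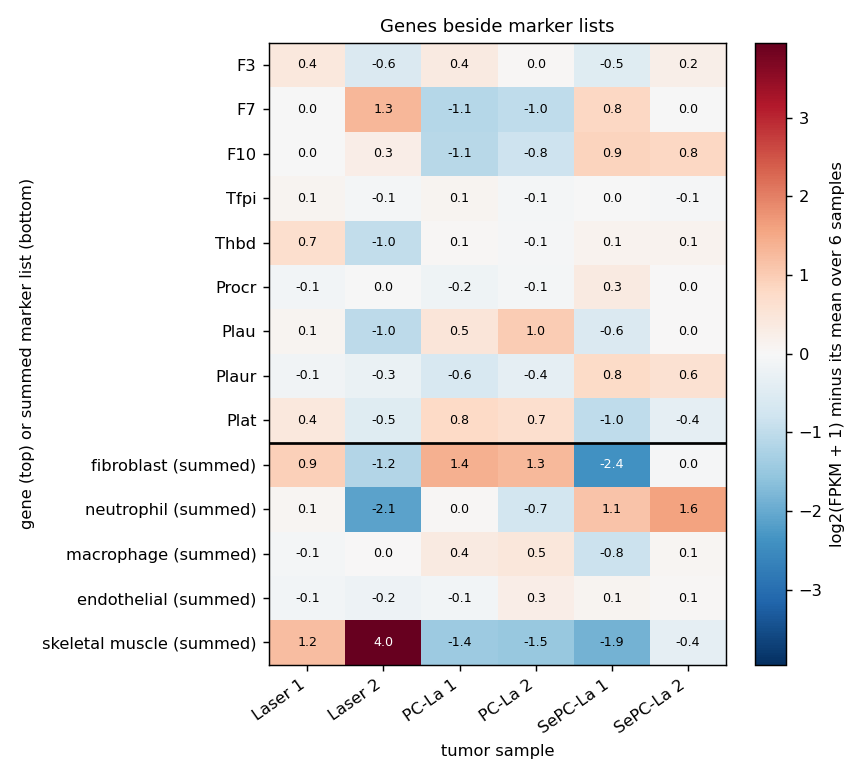
Each cell gives log2(FPKM + 1) minus the mean over the 6 samples, for the 9 genes above the line and for summed lists of cell type markers below it, with samples in columns. Plat is high where the fibroblast sum is high (PC-La 1 and PC-La 2), and Plaur and the neutrophil sum are highest in both SePC-La samples.

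Receptor and protease were thus not highest in the same group. The ratio of Plau to Plaur was 2.61 and 1.27 for Laser, 4.79 and 5.76 for PC-La, and 0.848 and 1.44 for SePC-La. Both PC-La ratios were above the other 4, and Laser and SePC-La overlapped. The ratio of Plau to Plat was 8.86 and 7.99 for Laser, 8.63 and 13.7 for PC-La, and 17.4 and 15.0 for SePC-La, so that both SePC-La ratios were above the other 4. The ratio of F10 to F7 was 4.21 and 1.52 for Laser, 11.5 and 9.87 for PC-La, and 3.64 and 7.90 for SePC-La, although the PC-La ratios rest on the 7 and 10 reads of F7. The ratio of F3 to its inhibitor Tfpi lay between 0.876 and 1.57 with all groups overlapping.

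**Figure D3:**
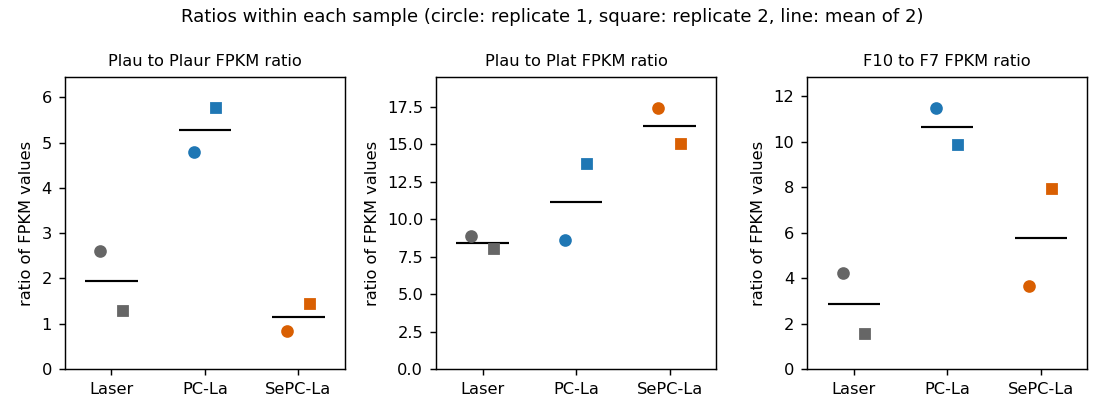
Ratio of FPKM values within each sample (y axes, linear, from 0) for Plau to Plaur, Plau to Plat and F10 to F7 by group (x axis), with circles for replicate 1, squares for replicate 2 and lines for the mean. The Plau to Plaur ratio is 4.79 or more in PC-La and 2.61 or less elsewhere.

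Of the genes that hold coagulation back, Tfpi, the inhibitor of the tissue factor complex, varied least. It was at 21.8 and 19.2 FPKM in Laser, 22.2 and 19.4 FPKM in PC-La, and 19.9 and 19.4 FPKM in SePC-La. Its highest and lowest samples differed 1.15-fold, against 23.7-fold for F7 and 5.00-fold for F10. The 3 log2 differences lay between -0.07 and 0.02, with an SE of 0.13.

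Thbd (thrombomodulin), the endothelial receptor that turns thrombin into an activator of protein C, was at 16.3 and 4.54 FPKM in Laser, 10.2 and 9.39 FPKM in PC-La, and 10.97 and 10.89 FPKM in SePC-La. The Laser samples spanned all the others, and both SePC-La samples were above both PC-La samples. The log2 differences were at most 0.29 (SE 0.51, shared by all groups). For SePC-La against PC-La the difference was 0.15, with an SE of 0.11 when the Laser samples were left out of the fit. Procr, the endothelial protein C receptor, was at 10.4 and 11.1 FPKM in Laser, 9.86 and 10.6 FPKM in PC-La, and 14.5 and 11.4 FPKM in SePC-La. Both SePC-La samples were above the other 4, with a mean 1.21 times that of Laser (log2 difference 0.24, SE 0.15) and 1.26 times that of PC-La (log2 difference 0.30, SE 0.15). The gap was small, 11.4 FPKM in SePC-La 2 against 11.1 FPKM in Laser 2. The 11 endothelial markers summed to 69.97 and 65.6 FPKM in Laser, 69.99 and 91.9 FPKM in PC-La, and 81.2 and 78.4 FPKM in SePC-La. Both SePC-La sums were above both Laser sums and within the range of PC-La. Tek stayed below 1 FPKM in every sample, and the part of endothelial cells in the Procr levels was not tested.

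Read against the whole table, the criterion used for screening (a log2 difference beyond 1 in either direction, with p under 0.05 before adjustment) was met in PC-La against Laser by 3 of the 9 genes, F7 and F10 lower and Plau higher, and by 1.29% of all genes tested. It was met in SePC-La against Laser by 0 of the 9 and by 0.682% of all genes; F10 and Plaur fell short by the size of the difference alone, and voom on recovered reads gave 0 as well. In SePC-La against PC-La, 4 of the 9 met it, F7, F10 and Plaur higher and Plat lower, and 2.98% of all genes. As the 9 genes were selected on results of these contrasts, nothing is read from these shares. Groups did not overlap for 5, 3 and 7 of the 9 genes in the 3 comparisons, against 42%, 40.6% and 65.5% of all genes. The median log2 differences of the 9 genes were 0.02, 0.18 and 0.15, beside -0.00, -0.06 and -0.07 over all genes tested. Over all genes, limma gave 0 genes with an adjusted p under 0.05 in each comparison; an unadjusted p under 0.05 was found for 627, 1318 and 2637 genes. Fitted without the Laser samples, SePC-La against PC-La gave 637 genes with an adjusted p under 0.05. With voom it was 0 in each comparison. The comparisons share samples and are not independent.

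**Figure D4:**
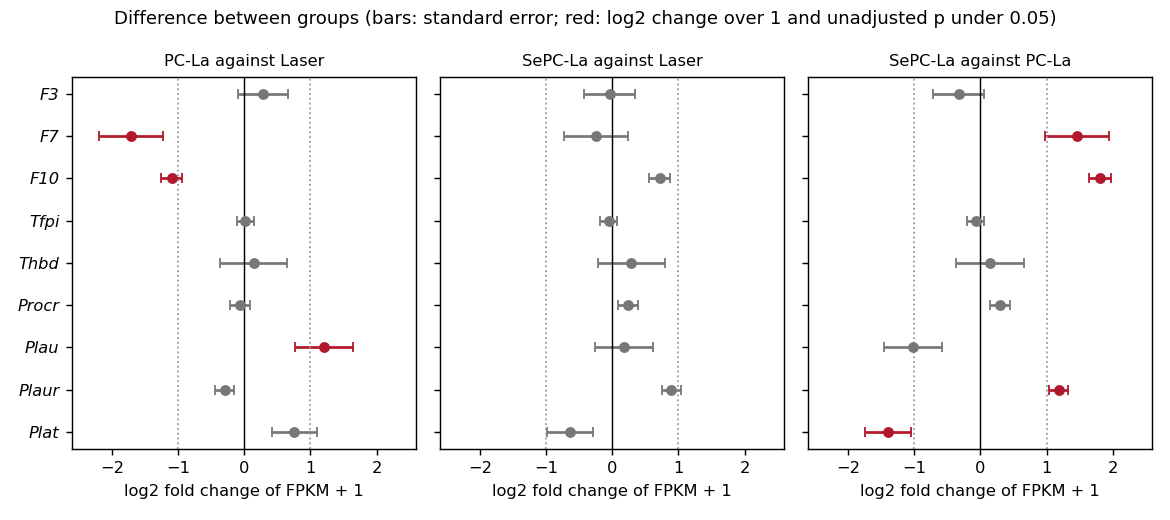
Log2 fold change of FPKM + 1 (x axes) of the 9 genes in the 3 comparisons, with bars for the standard error of the fit, dotted lines at a log2 fold change of -1 and 1, and red for genes that met the criterion used for screening. F10 lies at -1.09, 0.71 and 1.81, and Tfpi lies near 0 in each comparison.

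Calls for F7, F10 and Plau in PC-La against Laser depended on single libraries. Without Laser 2, F7 alone met the criterion, and without PC-La 1, Plau alone met it. Without PC-La 2, F7 and F10 met it, and without Laser 1, Plat met it as well. In SePC-La against Laser, Thbd met it without Laser 1 and Plat without Laser 2. In SePC-La against PC-La, the call of F7 was lost without PC-La 1, without PC-La 2 or without SePC-La 1, while F10, Plaur and Plat kept theirs under all 16 alternatives tried.

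Levels per length placed Plau first in each group. In Laser the order of the means was Plau, Plaur, F3, Tfpi, Procr, Thbd, F10, Plat and F7, in which samples of Plaur overlapped F3, F3 overlapped Tfpi, and each neighbor from Procr to F7 overlapped the next. In PC-La the order was Plau, F3, Plaur, Tfpi, Plat, Procr, Thbd, F10 and F7, with overlap between F3 and Plaur and between Procr and Thbd. In SePC-La it was Plau, Plaur, F3, Tfpi, F10, Procr, Thbd, Plat and F7, with overlap between Plau and Plaur, F3 and Tfpi, F10 and Procr, and Plat and F7. F10 thus stood next to last in PC-La and ahead of Procr, Thbd, Plat and F7 in SePC-La.

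Of 46 further genes of the pathway, in 4 lists, 15 passed the filter. They comprised 3 of 16 coagulation factors, 2 of 4 thrombin and protease-activated receptors, 2 of 10 anticoagulants and 8 of 16 genes of the plasminogen system. In PC-La against Laser, 1 of the 15 met the criterion, F13a1, the A chain of the factor that cross-links fibrin. Its level was 9.65 and 31.2 FPKM in Laser, 5.42 and 3.94 FPKM in PC-La, and 7.54 and 14.6 FPKM in SePC-La. Its log2 difference was -1.72 (SE 0.58, limma adjusted p = 0.753), lower in 2 of 2 PC-La samples than in either Laser sample; the call was lost without Laser 2, without PC-La 1 or without PC-La 2. In the other 2 comparisons 0 of the 15 met the criterion, also with voom, and 3 in each had an unadjusted p under 0.05. Groups did not overlap for 6, 3 and 14 of the 15, where all genes gave 42%, 40.6% and 65.5%, the 14 split into 5 higher and 9 lower in SePC-La than in PC-La. The medians of the 15 were 0.07, -0.20 and -0.18. F2r, the main thrombin receptor, and F2rl1, a receptor cleaved by the F3 and F7 complex, were chosen after their values were seen. F2r was at 56.4 to 110 FPKM, and both SePC-La samples (56.4 and 72.2 FPKM) were below all others. F2rl1 was at 7.90 to 12.2 FPKM. Both its SePC-La samples (7.90 and 10.2 FPKM) were below both PC-La samples and overlapped Laser. Neither gene met the criterion in any comparison.

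The genes whose levels most resembled those of each member over the 6 samples, by Pearson correlation of log2(FPKM + 1), were Emilin2 and Anp32e for F10, Car13 and Rbm17 for Plaur, Cyp4f16 and Chst2 for Plau, Mllt3 and Cilp for Plat, and Helq and Mars2 for F7. For F3 the nearest was Aamp, and the pairs were for Tfpi Atxn7l3 and Gzf1, for Thbd Cdc25c and Ist1, and for Procr Nfkb2 and Aars. The correlations ranged from 0.986 to 0.999 over 6 samples, and as the nearest of 10853 genes they are a description. Emilin2, the nearest to F10 (r = 0.997), was at 25.1 and 26.6 FPKM in Laser, 14.3 and 16.1 FPKM in PC-La, and 39.5 and 38.1 FPKM in SePC-La. It had the same order of groups as F10, with no overlap.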

How the data were processed

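RNA of 6 mouse tumor samples, 2 per group, was sequenced. The authors deposited a table of FPKM values. The submitters' processing notes name HISAT2 2.0.5, HTSeq 0.9.1, DESeq 1.30.0 and mm9. The values, multiplied by exon lengths of GENCODE M21 (GRCm38), gave whole reads (within 0.05) in all 6 samples for 97.9% of expressed genes, so coordinates here are those of GRCm38; the table has none. Whether counting used strand is not given in the sources used here. The totals behind the FPKM scaling, recovered from the values and exon lengths, were 14447792 to 17649489 reads per sample (median 15673397). They are not a sequencing depth given by the sources.

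Log2(FPKM + 1) was fitted with limma 3.58.1 in R 4.3.3 (group means over all 6 samples, trend and robust moderation) on the 10853 genes whose mean reached 1 FPKM, with Benjamini-Hochberg adjustment. Genes were screened by the thresholds of the study, a log2 difference beyond 1 and p under 0.05. The fit was tested on simulated data. Levels are FPKM, and SE is that of the fit. Alternatives were another pseudocount, filter, scaling, moderation and sample set, voom on recovered reads, a replicate block and leaving out each sample. The 9 genes and all lists were chosen with earlier results of these data known. Named genes were the 9, pathway genes meeting the criterion and the 2 genes nearest to each of the 9; others were chosen after their values were seen. Marker lists covered platelets, endothelium, macrophages, neutrophils, hepatocytes, fibroblasts, skeletal muscle, erythroid cells, and mesothelium and epithelium. Results of a few genes are left out of this text.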

Additional observations from a re-analysis of the deposited data

Results flagged for a closer look

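F10 and Plaur were flagged because their PC-La samples lay below, and their SePC-La samples above, the range of Laser, so that the 2 treatments differed from Laser in opposite directions. The share of all genes with this pattern was not counted, so the pattern is not read as particular to them. The log2 difference between SePC-La and PC-La was 1.81 for F10 and 1.19 for Plaur. The difference met the criterion used for screening for both genes. As the 2 genes were chosen with results known, this is not read as a test. Both treatments were set against the same Laser samples.

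Eno1, an enolase that also serves as a plasminogen receptor on cell surfaces, had the same pattern and was chosen after its values were seen. It was at 337 and 402 FPKM in Laser, 290 and 301 FPKM in PC-La, and 646 and 528 FPKM in SePC-La, with a log2 difference of 0.98 between SePC-La and PC-La (SE 0.16, limma adjusted p = 0.120). Near-identical copies of Eno1 in the genome make its level uncertain.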

How the results depend on the processing

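Over all genes tested, the number that met the criterion was 140 in PC-La against Laser, 74 in SePC-La against Laser and 323 in SePC-La against PC-La, the last split into 128 higher and 195 lower; median-ratio scaling gave 166 higher and 149 lower, and quantile normalization 169 and 149. The count was 68, 46 and 186 with a minimum mean of 5 FPKM, and 627, 1318 and 2637 without a fold threshold. With voom on recovered reads it was 220 in PC-La against Laser and 132 in SePC-La against Laser, and with a pseudocount of 0.1 it was 129 in SePC-La against Laser and 488 in SePC-La against PC-La. Leaving out 1 sample, with the lone sample left assumed to vary like the other groups, gave 71 (without PC-La 2) to 664 (without Laser 1), 60 to 253 (without Laser 1) and 169 (without SePC-La 1) to 584 (without SePC-La 2) genes. Without Laser 1, 312 genes had a limma adjusted p under 0.05 in PC-La against Laser and 97 in SePC-La against Laser, where all 6 samples gave 0. The causes were not tested.

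Of the 9 genes, leaving out 1 sample gave 1 to 4, 0 to 1 and 3 to 5 calls in the 3 comparisons. Without a fold threshold, 2 met p under 0.05 in SePC-La against Laser. F7 failed the minimum mean of 5 FPKM. Plau met the criterion in SePC-La against PC-La in 5 of 16 alternatives. None of the 7 differences that met the criterion changed sign under any alternative tried. With a pseudocount of 0.1 and with voom, F7 gave -3.02 and -3.36 in PC-La against Laser, and F10 gave 2.07 and 2.10 in SePC-La against PC-La.

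Of the 15 other pathway genes, leaving out 1 sample gave 0 to 5, 0 to 2 and 0 to 5 calls. In PC-La against Laser voom gave 0. Without a fold threshold, 3 met p under 0.05 in SePC-La against Laser and 3 in SePC-La against PC-La. In the latter, median-ratio scaling gave 1 (Eno1), no robust estimation gave 2 (Masp1 and Mrc2) and the fit of only the 4 samples compared gave 5 (F13a1, Masp1, Mrc2, Pros1 and Serpinb2).

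The study names no pairing by replicate number. Deviations of same-numbered samples from their group means correlated at 0.09, -0.43 and -0.18 between groups. This cannot show whether samples were paired, because samples of a group also differed in their marker sums. With the replicate block, 133, 81 and 285 genes met the criterion, and 2, 0 and 4 of the 9, as Plau was lost in PC-La against Laser. With 2 samples per group and 7 reads of F7 in PC-La 1, small differences were not detectable at this depth.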

Other observations

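Erythroid markers, which belong to no comparison above, summed to 127 and 13.6 FPKM in Laser, 263 and 362 FPKM in PC-La, and 613 and 933 FPKM in SePC-La, so that both treated groups lay above both Laser samples. The mesothelial and epithelial list summed to 202 to 311 FPKM with the groups overlapping. Most of this sum was Krt8 and Krt18, whose groups overlapped too. Msln, chosen after its values were seen, was lower in both PC-La samples than in all others. It was at 8.35 and 60.7 FPKM in Laser, 3.65 and 3.23 FPKM in PC-La, and 13.6 and 11.7 FPKM in SePC-La. Of the pathway genes outside the 9, Serpinb2, an inhibitor of urokinase chosen after its values were seen, was at 8.40 and 0.217 FPKM in Laser, 2.83 and 2.39 FPKM in PC-La, and 4.86 and 8.92 FPKM in SePC-La, and the Laser samples spanned 3 of the other 4 samples.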
